A study of Mus musculus with 9 samples.

Results

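Transcripts of 10 genes that encode S100 proteins, annexins, vimentin and a small LIM protein were followed in dendritic cells of the mouse spleen. The genes were S100a4, S100a6, S100a10, S100a11, S100a13, Anxa1, Anxa2, Anxa5, Vim and Crip1, taken by symbol from a list, of 24054 genes in the deposited files. All 10 passed the filter of an average of at least 1 read per library, as did 14452 genes in all, and they held between 259 and 11198 reads in every library. The cells came from C57BL/6 mice of the genotype Clec9a-Cre/Cre Rosa-tdTomato/tdTomato, in which TOMATO (TOM) labels cells that have, or whose precursors had, expressed Cre from the Clec9a locus. All groups share this genotype, so that both Clec9a alleles carry Cre in every library. From live single cells without autofluorescence, those positive for MHCII, CD11c and CD11b were sorted into TOM+ cDC2 and TOM- DC2 at postnatal day 8, and into TOM+ cDC2 from adults of 9 weeks (1 library) or 8 weeks (2 libraries), with 3 libraries per group. Sorts from young mice started from pooled spleens, no TOM- cells of adults were analysed here, and TOM- says only that no label was detected, since labelling can miss cells.

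S100 proteins are small calcium-binding proteins that attach to targets when calcium rises, and annexins are proteins that bind negatively charged membrane lipids in the presence of calcium. S100a10 is the exception among S100 proteins, because it does not need calcium, and together with annexin A2 it forms a complex under the plasma membrane that binds the giant scaffold protein Ahnak, actin and plasminogen. Vimentin is the main intermediate filament protein of blood and mesenchymal cells, and the family as a whole is well known for high expression in motile myeloid cells.

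The libraries held 12783252 to 22809401 reads on genes. Defining cDC2 transcripts were present in all 9. Their level is given in TPM, RSEM's unit of transcript level, which corrects for transcript length and library total. Together the cDC2 identity list took 61870 to 66050 TPM in young TOM+ cDC2 and 58920 to 63740 TPM in young TOM- DC2. In adults it took more, at 92790 to 95780 TPM. Most of each sum came from 2 genes of MHC class II presentation. Cd74 had means of 44850, 43100 and 63200 TPM in young TOM+, young TOM- and adult cells, and H2-Ab1 16830, 16220 and 28830 TPM. Itgam (147, 147 and 77.9 TPM) and Sirpa (753, 688 and 470 TPM) were the 2 genes of the 11 listed that were higher in young cells, and 8 were lower. Libraries are named by the number in their deposited names, 81, 91 or 92 in both young groups and 91, 92 or 95 in adults. The TOM- library numbered 81 stood apart, with 1174 TPM of red cell transcripts against at most 120.1 TPM in any other library, and with the neutrophil genes S100a8 at 7.68 TPM and S100a9 at 5.58 TPM. In the other 8 libraries these 2 S100 genes lay between 0 and 0.53 TPM. Values without both young libraries numbered 81 are given below where a count rests on them.

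The level of the 10 genes summed to 9122 ± 1072 TPM (SD, n = 3) in young TOM+ cDC2, 8410 ± 962 TPM in young TOM- DC2 and 6741 ± 586 TPM in adult TOM+ cDC2. S100a11 alone made up 51.7%, 55.2% and 60.6% of these sums, but 28.7%, 31.6% and 36.7% if its level is scaled to the reads that STAR placed at a single position, so its share is uncertain. On either basis it ranked first in every group, followed by S100a4, while S100a13 ranked last, after Anxa1. The order between these ends differed with age. In adults, S100a6 and Anxa5 came next after S100a4, whereas in both young groups Crip1 and Anxa2 did. Neighbours whose libraries overlapped, and whose order is therefore not resolved, were S100a4 and Crip1 in both young groups, Vim, S100a10, S100a6 and Anxa5 in turn in young TOM+ cDC2, Crip1 and Anxa2 as well as S100a10, Anxa5, Vim and S100a6 in turn in young TOM- DC2, and Crip1, Anxa2, Vim, S100a10 and Anxa1 in turn in adults. The plot of TPM by library shows each value.

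**Figure D1:**
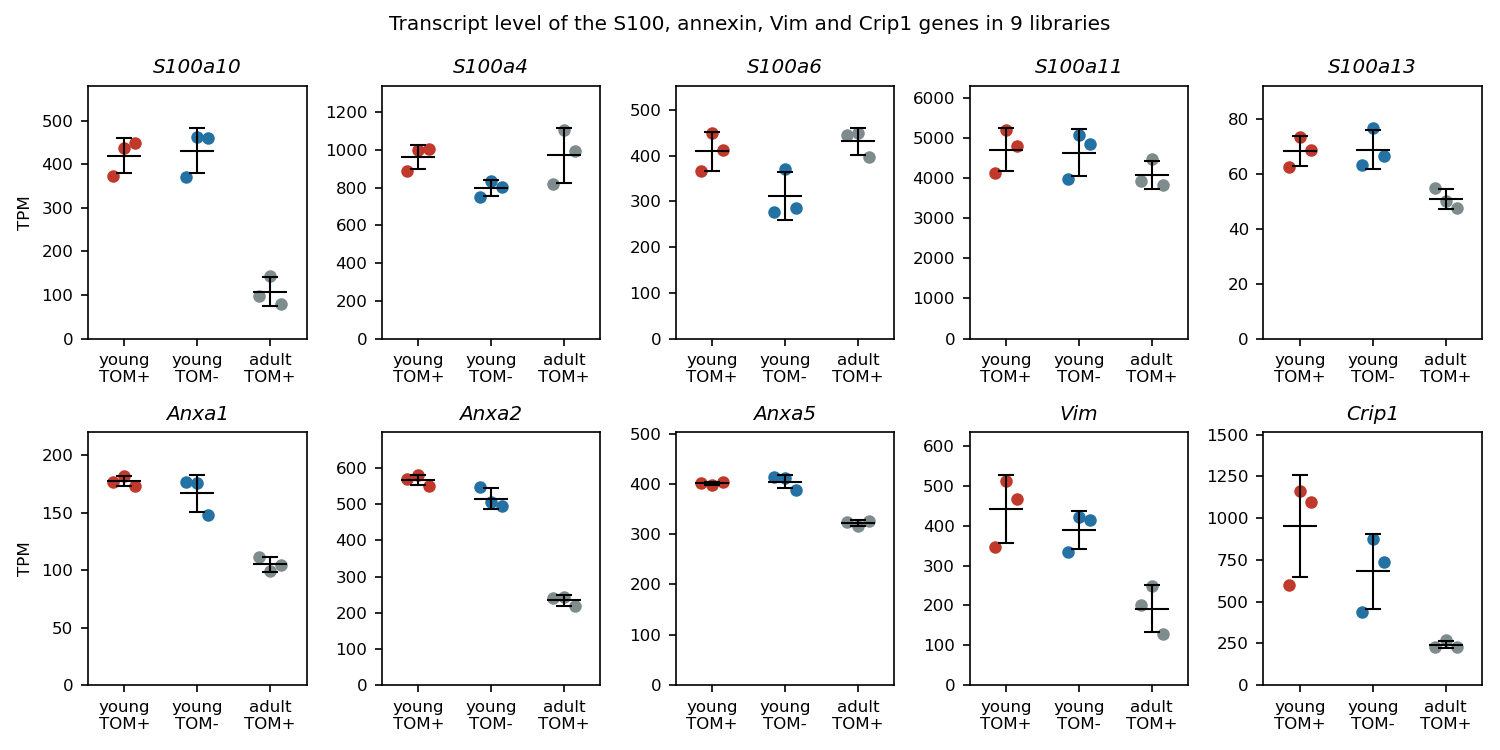
Level of each gene in TPM (vertical axes, linear from 0) in the 3 libraries of each group (points, in the order of their library numbers) with mean and SD (black). S100a10, S100a13, Anxa1, Anxa2, Anxa5, Vim and Crip1 sit lower in all adult libraries than in every young one, although S100a13 and Anxa5 did not pass the test. S100a4 and S100a11 overlap between young and adult TOM+ cDC2.

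To ask which of these genes differ with age, TOM+ cDC2 of 8-day-old mice were compared with TOM+ cDC2 of adults. S100a10, Anxa1, Anxa2, Vim and Crip1 were higher in the young cells, and S100a4, S100a6, S100a11, S100a13 and Anxa5 did not pass the test. Passing means a Benjamini-Hochberg adjusted p (padj) under 0.05 over all tested genes in the quasi-likelihood test of edgeR, and the log2 fold change (log2FC) comes from the same fit. The 5 higher genes of 10 stand beside 21% of all genes that passed as higher and 19.5% as lower in young cells. S100a10, Anxa2, Vim and Crip1 also exceeded a log2FC of 1, which 5.96% of all genes did in this direction. The median log2FC was 0.48 for the 10 genes and 0.05 for all genes. Young TOM- DC2 were compared with the same adult libraries, so that both sets of differences share their control. There, the same 5 genes were higher in young cells, against 19.4% of all genes, but S100a4 and S100a6 were lower, against 16.9%. Only S100a10 and Crip1 exceeded a log2FC of 1 in that comparison, where 6.5% of all genes did so, and the median log2FC was 0.41 for the 10 genes and 0.07 for all genes. Bulk libraries cannot tell apart a level that falls in every cell from a smaller share of cells that express the gene.

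**Figure D2:**
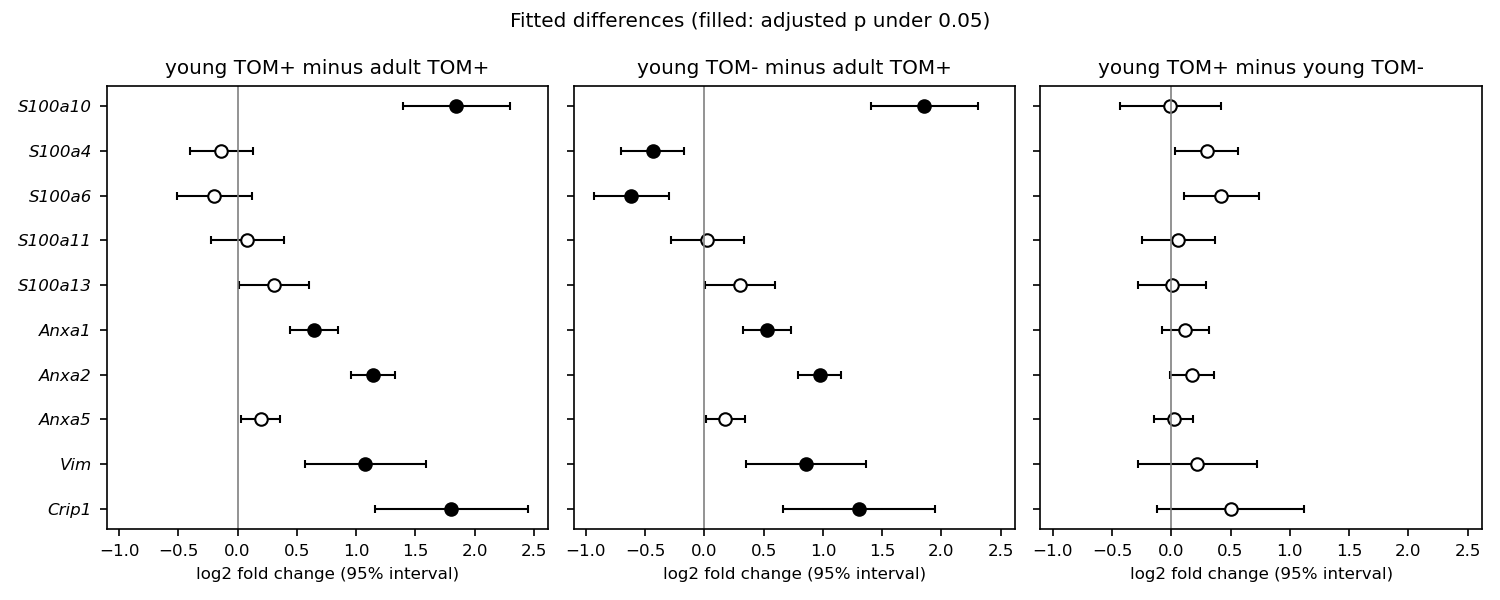
Fitted log2FC with its 95% interval (horizontal axes) of each gene in the 3 comparisons, filled where padj was under 0.05. S100a10 lies near 1.85 against adults in both young groups and near 0 between them, whereas S100a4 and S100a6 are filled only in TOM- DC2 against adults.

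S100a10 and Crip1 showed the largest differences with age among the 10 genes. The level of S100a10 was 374, 438 and 448 TPM in young TOM+ cDC2, 372, 462 and 461 TPM in young TOM- DC2, and 98.5, 145 and 79.0 TPM in adult TOM+ cDC2. Every young library exceeded every adult one, and the young groups overlapped. The log2FC was 1.85 ± 0.21 (SE) in TOM+ cDC2 (padj = 2.6e-05) and 1.85 ± 0.21 in TOM- DC2 (padj = 3.3e-05), or 3.60-fold (95% interval 2.63 to 4.92) and 3.62-fold (2.64 to 4.95). Leaving out any 1 library kept padj at or below 0.00041. The gene lies at chr3:93555080-93564643 on the plus strand (GRCm38), 28.8 kb past the end of S100a11 at chr3:93520488-93526287, with a single annotated gene, Gm29950, between them.

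S100a11, a partner of annexin A1 at membranes, did not follow its neighbour. Its level was 4146, 5211 and 4798 TPM in young TOM+ cDC2, 3979, 5092 and 4850 TPM in young TOM- DC2, and 3929, 4490 and 3830 TPM in adults. The libraries of all 3 groups overlapped. The fold between young and adult TOM+ cDC2 was 1.06 (95% interval 0.855 to 1.31, padj = 0.68) and that of TOM- DC2 against adults was 1.02 (0.821 to 1.26, padj = 0.91). The absolute level of this gene is uncertain, because STAR, which counted reads with a single position, held only 36.8% to 38.5% of the reads that RSEM, which shares out reads with several positions, gave it, against 103% to 116% for the others except S100a10 at 101% to 103%. For TOM- DC2 against adults the log2FC was 0.02 with STAR counts and -0.0010 with RSEM counts.

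Anxa2, the membrane-binding partner of S100a10, differed less but with a smaller error. It was measured at 570.4, 580.0 and 551 TPM in young TOM+ cDC2, 547, 505 and 495 TPM in young TOM- DC2, and 241, 244 and 217 TPM in adults. The groups did not overlap in either comparison with adults. The log2FC was 1.15 ± 0.085 in TOM+ cDC2 (padj = 1.3e-06) and 0.97 ± 0.085 in TOM- DC2 (padj = 5.9e-06), or 2.21-fold and 1.96-fold.

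Anxa1, an annexin known for restraining inflammation through formyl peptide receptors, moved less. Its level was 177, 182 and 173 TPM in young TOM+ cDC2, 177, 175 and 148 TPM in young TOM- DC2, and 112, 98.9 and 104 TPM in adults. The adult libraries were again below all young ones, by 1.56-fold in TOM+ cDC2 (padj = 1.6e-04) and 1.44-fold in TOM- DC2 (padj = 8.3e-04). Anxa5, widely used to detect exposed phosphatidylserine, had the tightest replicates, with a SD of 0.768% to 3.40% of the group mean. It lay between 389 and 413 TPM in the 6 young libraries and between 316 and 327 TPM in adults. Although these ranges do not overlap, the fitted folds were 1.14 (95% interval 1.02 to 1.28, padj = 0.058) in TOM+ cDC2 and 1.13 (1.01 to 1.26, padj = 0.092) in TOM- DC2. With library totals in place of TMM normalisation factors, which moves the median log2FC of all genes from 0.05 to 0.25 and from 0.07 to 0.29, Anxa5 passed in both comparisons (padj = 8.2e-04 and 9.0e-04), as it and S100a13 also did in both limma fits on TPM and with library number as a block. S100a13, which takes part in the release of growth factors that lack a signal peptide, was measured at 62.7 to 73.5 TPM, 63.3 to 76.7 TPM and 47.7 to 55.0 TPM in the 3 groups. It behaved like Anxa5, with folds of 1.24 (padj = 0.091) and 1.23 (padj = 0.10), and it passed in TOM+ cDC2 without the library numbered 81 of that group (padj = 0.044) and in TOM- DC2 without its own (padj = 0.038).

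Vim was measured at 348, 514 and 468 TPM in young TOM+ cDC2, 335, 422 and 414 TPM in young TOM- DC2, and 200.5, 248 and 128 TPM in adults. Young and adult libraries did not overlap, although the adult SD was 31.2% of the mean, with the adult library numbered 95 lowest. The fold was 2.11 (95% interval 1.48 to 3.01, padj = 0.0030) in TOM+ cDC2 and 1.81 (1.27 to 2.58, padj = 0.013) in TOM- DC2. Leaving out 1 library at a time gave a padj of 0.00079 to 0.014 and of 0.0054 to 0.049. S100a10 was likewise lowest in the adult library numbered 95 and highest in the one numbered 92.

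Crip1, a small protein with a LIM zinc-binding domain, combined a large difference with the widest spread among young libraries. Its level was 600.1, 1165 and 1095 TPM in young TOM+ cDC2, 436, 873 and 736 TPM in young TOM- DC2, and 229, 268 and 230.4 TPM in adults. The SD was 32.3% and 32.8% of the mean in the young groups and 9.12% in adults. Even the lowest young library exceeded the highest adult one. The fold was 3.50 (95% interval 2.23 to 5.47, padj = 4.3e-04) in TOM+ cDC2 and 2.47 (1.59 to 3.85, padj = 0.0042) in TOM- DC2.

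The spread of Crip1 came with the library number. In TMM-normalised log2 CPM, the library numbered 81 was the lowest of young TOM+ cDC2 for all 10 genes, against 37.8% of all tested genes, and the lowest of young TOM- DC2 for 8 of 10, against 37.3%. In TPM it was the lowest for 7 of 10 in both groups, the exceptions being Anxa1, Anxa2 and Anxa5. Lmna, the nuclear lamin of the same filament superfamily, was named after its values were seen and was also lowest in number 81, with 42.8, 120 and 145 TPM in TOM+ cDC2 and 44.3, 119 and 169 TPM in TOM- DC2. Red cell and neutrophil transcripts were raised in only 1 of these 2 libraries, and their part in the low values was not tested. Without both young libraries numbered 81, 6 of 10 genes passed as higher in young TOM+ cDC2 than in adults, against 19.8% of all genes in that fit. In TOM- DC2 against adults, 6 of 10 passed as higher, against 18.9%, and 2 as lower, against 18.3%. S100a13 was added in each.

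S100a4 and S100a6 did not share the direction of S100a10. Their genes lie side by side at chr3:90603771-90606045 and chr3:90612882-90624181 with S100a5 between them, and both proteins are known from motile cells, S100a4 as a partner of non-muscle myosin and S100a6 as a partner of Cacybp. S100a4 was measured at 888, 999 and 1004 TPM in young TOM+ cDC2, 752, 838 and 806 TPM in young TOM- DC2, and 818, 1105 and 995 TPM in adults. Young TOM+ cDC2 and adults overlapped, with a fold of 0.910 (95% interval 0.757 to 1.09, padj = 0.40). In TOM- DC2 the log2FC against adults was -0.44 ± 0.12 (padj = 0.015), although the groups overlapped in TPM. This call did not hold without the adult library numbered 92 (padj = 0.068), with library totals alone (padj = 0.14) or in the limma fits on log2(TPM + 1) and log2(TPM + 0.1) (padj = 0.073 and 0.071), and it was at the threshold without the young TOM- library numbered 81 (padj = 0.050).

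S100a6 was measured at 366, 451 and 412 TPM in young TOM+ cDC2, 276, 371 and 286 TPM in young TOM- DC2, and 445, 451 and 397 TPM in adults. All 3 TOM- libraries were below all adult ones, with a log2FC of -0.62 ± 0.15 (padj = 0.0056), or 1.53-fold lower (95% interval 1.23 to 1.91). In young TOM+ cDC2 the fold against adults was 0.872 (0.700 to 1.09, padj = 0.30).

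To ask whether both young populations differ in these genes, TOM+ cDC2 were compared with TOM- DC2 at 8 days, which is also the test of whether the differences with age differ between them. In the fit without pairing, 0 of 10 genes passed, against 0.125% of all genes as higher and 1.47% as lower, and 1.18% of all genes passed with a log2FC beyond 1. DESeq2 also gave 0, and 2 of 10, S100a4 and S100a6, had an unadjusted p under 0.05. The library numbers paired the young libraries, as the deviations of same-numbered libraries from their group means correlated in all 3 pairs. With the library number as a block, S100a4 (padj = 0.027), S100a6 (padj = 0.0010) and Crip1 (padj = 3.3e-04) were higher in TOM+ cDC2. In that fit, 2.23% of all genes passed as higher and 4.34% as lower. It covers all 9 libraries, so the block also joins the adult libraries numbered 91 and 92 to young ones. Correlations of adult with young libraries did not bear out that join. S100a4, S100a6 and Crip1 were each higher in TOM+ cDC2 in all 3 pairs, as were S100a11, Anxa1, Anxa2 and Vim, which did not pass. Crip1 differed by 1.33-fold to 1.51-fold within pairs, S100a6 by 1.22-fold to 1.47-fold and S100a4 by 1.21-fold to 1.27-fold.

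The remaining genes differed less or not in the same way in each pair. Anxa2 was higher in TOM+ cDC2 by 1.08-fold to 1.17-fold (block padj = 0.053) and Vim by 1.07-fold to 1.24-fold (block padj = 0.10). For S100a10 the pairs lay on both sides of 1, from 0.957-fold to 1.04-fold, and the 95% interval of the unpaired fold was 0.739 to 1.34. The block fitted to the 6 young libraries alone, added after the data were seen, passed 5 of 10 genes, with Anxa2 (padj = 0.0047) and Vim (padj = 0.0018) added. The share of all genes that passed in that fit is not given here, so this count has nothing to stand beside. In the block fit of all groups without both young libraries numbered 81, S100a6 (padj = 0.0093) and Crip1 (padj = 0.0022) passed and S100a4 did not.

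**Figure D3:**
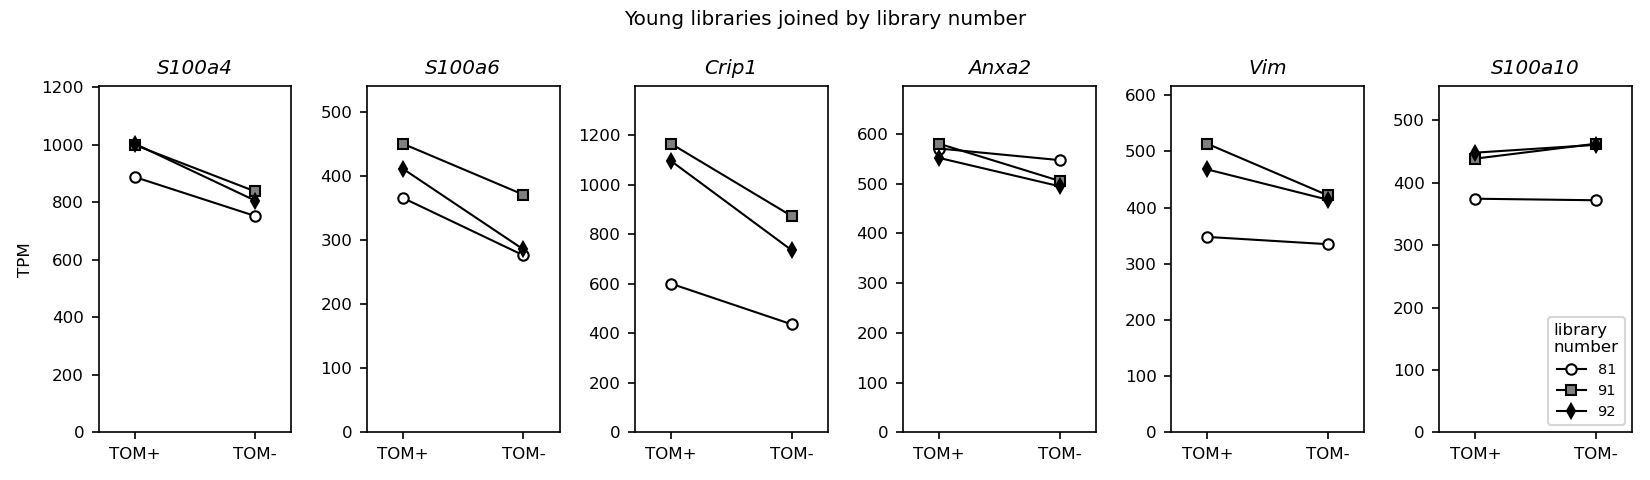
Level in TPM (vertical axes, linear from 0) of 6 genes in the 3 young TOM+ and 3 young TOM- libraries, with lines that join libraries of the same number. The lines for S100a4, S100a6, Crip1, Anxa2 and Vim all fall from TOM+ to TOM-, although Anxa2 and Vim did not pass in the block fit of all libraries. The library numbered 81 starts lowest for Crip1 at 600.1 TPM, and S100a10 has no common direction.

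The 300-base promoters of RefSeq (GRCm38.p6) run from 250 bases before to 50 bases after the gene start. They were matched for 9 of the 10 genes, all but S100a10. The promoters of Anxa2, Vim and Crip1 are shown because these genes, like S100a10, exceeded a log2FC of 1 between young and adult TOM+ cDC2. That of S100a4 is shown because it did not. The 4 promoters shown lie at chr9:69453433-69453732, chr2:13574061-13574360, chr12:113151762-113152061 and chr3:90603520-90603819, all on the plus strand. Capitals mark matches on either strand to the TATA box (TATAAA), the CCAAT box (CCAAT), the GC box (GGGCGG) and the AP-1 site (TGANTCA).
Anxa2: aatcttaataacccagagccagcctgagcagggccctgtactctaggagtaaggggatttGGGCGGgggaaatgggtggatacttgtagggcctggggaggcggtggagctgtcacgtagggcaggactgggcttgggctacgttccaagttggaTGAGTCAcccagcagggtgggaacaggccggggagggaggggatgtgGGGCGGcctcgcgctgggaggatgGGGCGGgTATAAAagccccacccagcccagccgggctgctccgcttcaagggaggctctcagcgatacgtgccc
Vim: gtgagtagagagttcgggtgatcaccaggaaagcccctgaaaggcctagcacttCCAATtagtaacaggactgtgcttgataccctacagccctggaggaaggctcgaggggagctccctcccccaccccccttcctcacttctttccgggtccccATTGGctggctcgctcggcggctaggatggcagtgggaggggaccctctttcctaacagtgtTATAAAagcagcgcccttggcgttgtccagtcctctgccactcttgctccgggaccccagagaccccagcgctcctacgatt
Crip1: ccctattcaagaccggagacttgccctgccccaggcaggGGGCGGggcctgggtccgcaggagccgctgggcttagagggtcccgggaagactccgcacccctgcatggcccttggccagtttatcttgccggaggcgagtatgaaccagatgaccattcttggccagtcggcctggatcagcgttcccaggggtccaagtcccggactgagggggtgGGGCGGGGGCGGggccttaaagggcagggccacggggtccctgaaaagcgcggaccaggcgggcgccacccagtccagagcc
S100a4: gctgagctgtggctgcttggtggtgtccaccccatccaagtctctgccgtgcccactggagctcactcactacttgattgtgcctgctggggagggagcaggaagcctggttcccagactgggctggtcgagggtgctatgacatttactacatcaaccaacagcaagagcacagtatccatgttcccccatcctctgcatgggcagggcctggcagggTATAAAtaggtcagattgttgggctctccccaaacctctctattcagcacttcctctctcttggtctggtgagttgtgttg
A TATA box began 32 bases before the start in Vim, 31 in S100a4, 32 in Anxa1 and 17 in Anxa2. This motif was present in 13.6% of all 32851 promoters of this length. Crip1 held 3 GC boxes and no TATA box, and Anxa2 and S100a11 held 3 GC boxes each, against 35.7% of all promoters with at least 1. AP-1 sites, found in 7.81% of all promoters, were present in Anxa2 and S100a11. CCAAT boxes, found in 37.4%, were present in Vim and S100a6. S100a13 and Anxa5 held none of the 4 motifs. Among the genes with GC boxes, Anxa2 and Crip1 passed as higher in young cells and S100a11 did not pass. A match only describes the letters in this window.

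Transcripts of proteins that bind these family members were followed in a list of 17 genes of partners and receptors, of which 16 were tested. In TOM+ cDC2, 5 were higher and 1 was lower in young cells than in adults, and in TOM- DC2, 4 were higher and 1 was lower, with a median log2FC of 0.43 and 0.34. Of all genes, 21% passed as higher and 19.5% as lower in TOM+ cDC2, and 19.4% and 16.9% in TOM- DC2. The counts of the lists that follow also stand beside these shares, and such small lists do not set them apart. Ahnak, the scaffold bound by the S100a10 and annexin A2 complex, was measured at 17.9, 13.1 and 18.0 TPM in young TOM+ cDC2, 21.1, 20.8 and 25.3 TPM in young TOM- DC2, and 1.88, 1.75 and 1.52 TPM in adults. All young libraries exceeded all adult ones, with a log2FC of 2.93 ± 0.15 (padj = 1.2e-07) and 3.40 ± 0.15 (padj = 5.0e-08), or 7.60-fold and 10.6-fold. In the block fit Ahnak was lower in TOM+ cDC2 than in TOM- DC2 (padj = 4.2e-04, 1.39-fold in the unpaired fit, padj = 0.13), the opposite direction to Crip1 and S100a6. Flna, an actin crosslinker, was 2.17-fold and 2.05-fold higher in young cells (padj = 3.8e-06 and 8.9e-06). Plgrkt, a plasminogen receptor, was 1.49-fold and 1.61-fold higher (padj = 0.0016 and 5.4e-04), and Cacybp, which binds S100a6, 1.44-fold and 1.32-fold (padj = 0.010 and 0.041). Actb, the most abundant gene of the list, did not pass (padj = 0.12 and 0.29).

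**Figure D4:**
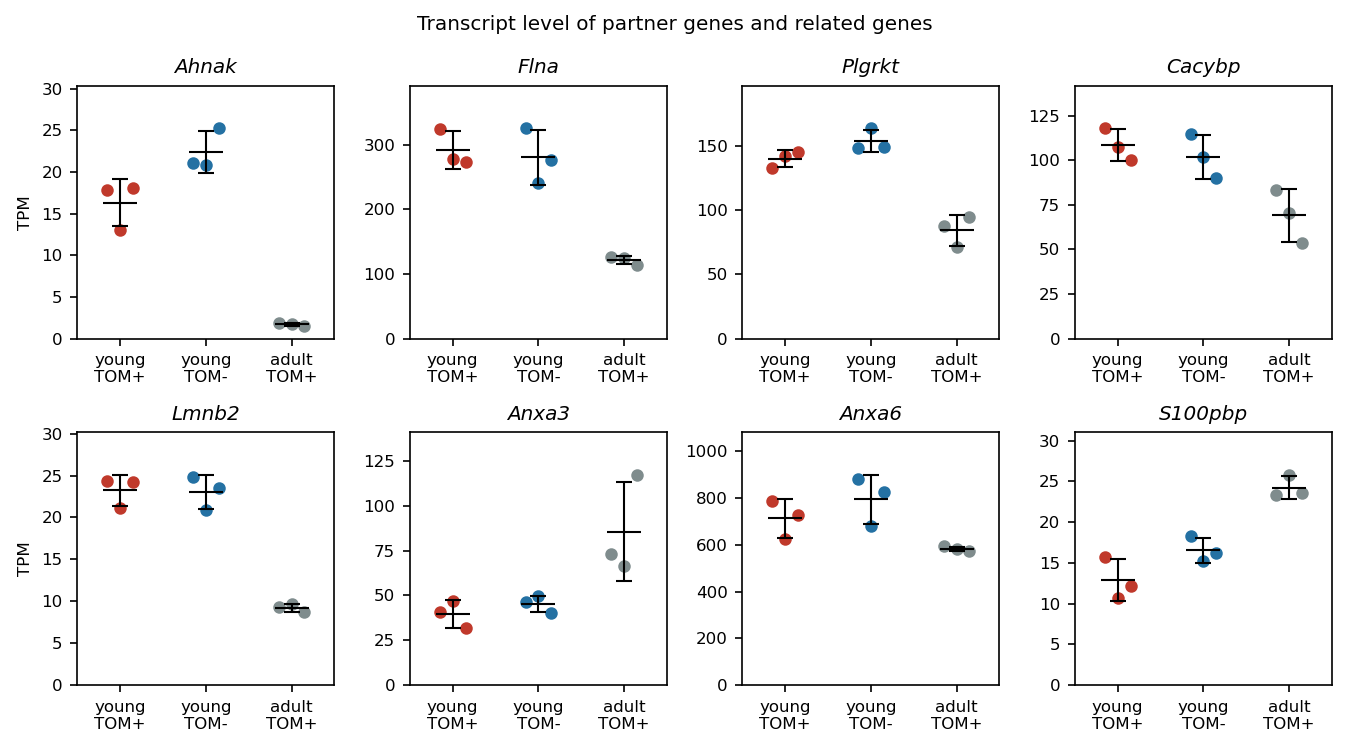
Level in TPM (vertical axes, linear from 0) of partner genes and of related genes in the 3 libraries of each group (points) with mean and SD (black). Ahnak lies at 13.1 TPM or more in young libraries and at most at 1.88 TPM in adults, and Flna and Lmnb2 are also higher in all young libraries, whereas Anxa3 and S100pbp are higher in all adult ones.

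The other annexins did not move like Anxa1 and Anxa2. Of 9 listed, 6 were tested. In young TOM+ cDC2, 2 were lower than in adults and the others did not pass, and 1 was higher and 1 was lower in TOM- DC2 than in adults. Anxa3 was lower in young cells, at 31.6 to 46.8 TPM and 40.1 to 49.4 TPM against 66.5 to 117 TPM in adults (log2FC -1.25 and -1.08, padj = 2.7e-04 and 8.6e-04). Anxa11 was lower in young TOM+ cDC2 (log2FC -0.38, padj = 0.024), with -0.29 in TOM- DC2 (padj = 0.073). Anxa6, the most abundant annexin at 575 to 881 TPM, was higher in TOM- DC2 than in adults (log2FC 0.28, padj = 0.035), with 0.16 in TOM+ cDC2 (padj = 0.21).

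Other S100 genes were scarce. Of 13 listed, 9 were tested and 2 were at 0 in every library. In TOM+ cDC2, 1 was higher in young cells, S100a16, with at most 24 reads in a library. The 2 lower ones were S100a3, with at most 26 reads, and S100pbp, which is listed here but is not itself an S100 gene. In TOM- DC2 the single gene that passed, S100pbp, was lower than in adults. S100pbp, which encodes an S100-binding protein and was the most abundant of this list, was lower in young cells, at 10.6 to 15.7 TPM and 15.2 to 18.3 TPM against 23.3 to 25.8 TPM (log2FC -1.02 and -0.68, padj = 5.3e-05 and 0.0012).

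Of 13 further CRIP and intermediate filament genes, 9 were tested, and 4 in TOM+ cDC2 and 5 in TOM- DC2 were higher than in adults, and the others did not pass. Lmnb2, a nuclear lamin, was higher in young cells by 2.32-fold and 2.25-fold (padj = 2.3e-06 and 4.3e-06), whereas Lmnb1, the most abundant of the list over all 9 libraries, did not pass (padj = 0.86 and 0.18). Krt8, a keratin, was the single gene of these lists that passed between both young groups without the block, at 0.80 to 1.03 TPM in TOM+ cDC2 and at least 11.2 TPM in TOM- DC2 (log2FC -3.70 ± 0.34, padj = 8.7e-05). Adult libraries held at most 0.18 TPM of it. The 7 genes of membrane repair by ESCRT proteins had a padj of 0.11 or more in every comparison without the block, and Chmp2a, the most abundant, lay between 254 and 272 TPM in all libraries.

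By Pearson's r of TMM-normalised log2 CPM over the 9 libraries, among 10102 genes with an average of at least 50 reads, the genes most like S100a10 were Cdca8 (r = 0.997) and Cdc20 (r = 0.994), both of cell division. Those most like Anxa2 were Cd300lg and Olfm1 (r = 0.997 each), those most like Anxa1 were Hprt (r = 0.996) and Dkc1 (r = 0.993), and those most like Vim were Mrps12 and H2afx (r = 0.988 each). For Crip1 they were Gorasp1 (r = 0.988) and Dgat2 (r = 0.986), for S100a6 Ust (r = 0.975) and H2-DMa (r = 0.955), and for S100a4 Tmem134 (r = 0.943) and Mettl8 (r = 0.942). No gene appears under 2 members. These values describe 9 libraries that fall into 3 groups and share their normalisation.

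Markers of cell state and of other cell types moved together with some of these differences, and their part in them was not tested. Their counts stand beside 21% of all genes higher and 19.5% lower in young TOM+ cDC2 than in adults. For young TOM- DC2 these shares were 19.4% and 16.9%. Of 16 cell cycle genes, 15 were higher in both young groups than in adults, with summed levels of 2335 to 2431 TPM, 2146 to 2220 TPM and 947 to 1149 TPM in the 3 groups. Of 8 genes of mature or migratory DC, 5 and 6 were lower in young cells, and the sum was 2644 to 2859 TPM, 2946 to 3472 TPM and 6945 to 9026 TPM. Of 11 cDC2 identity genes, 2 were higher and 8 lower in both young groups than in adults. Of 7 genes listed for ESAM-high cDC2, a splenic subset, 5 were lower in both young groups. Cx3cr1, which is in this list but is not particular to that subset, was higher in TOM+ cDC2 (padj = 0.039). The ESAM-high sum was 363 to 477 TPM, 429 to 553 TPM and 822 to 840 TPM. Of 7 ESAM-low genes, 3 were higher and 3 lower in TOM+ cDC2, and 1 was higher and 2 lower in TOM- DC2. Their sums overlapped, at 1992 to 2844 TPM, 2013 to 3286 TPM and 2201 to 2998 TPM. Of 9 macrophage genes, 4 were higher and 1 was lower in TOM+ cDC2 and 7 were higher in TOM- DC2 than in adults, with sums of 187 to 238 TPM, 290.4 to 355 TPM and 107 to 155 TPM. Of 11 genes of group 3 innate lymphoid cells, 1 was higher and 4 were lower in TOM+ cDC2, and 5 were higher and 2 lower in TOM- DC2. Ccr2, Csf1r and Cd14 are in both the ESAM-low and the monocyte list, and Clec4a4 is in both the cDC2 identity and the ESAM-high list, so these counts are not independent. Of 10 monocyte genes, 3 were higher and 2 lower in TOM+ cDC2, and 1 was lower in TOM- DC2. The higher ones were Plac8 (mean 1282 against 917 TPM), Csf1r (241 against 169 TPM) and Ccr2 (37.6 against 17.0 TPM), which cDC2 also express. The monocyte sum was larger in adults, at 4097 to 5221 TPM against 3144 to 3805 TPM in the young groups, but without Nr4a1 it was 1554 to 1635 TPM, 1298 to 1424 TPM and 1094 to 1224 TPM in the 3 groups. The more monocyte-restricted Ly6c2, Fcgr1 and F13a1 lay at 0.20 to 1.86 TPM, 0.12 to 1.02 TPM and 0 to 0.25 TPM. Reads outside annotated genes were 8.84% to 11.8% and 10.7% to 12.8% in the young groups and 15.2% to 17.1% in adults.

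Between both young groups, markers passed mainly in the block fit, where 2.23% of all genes were higher and 4.34% lower in TOM+ cDC2. Of 9 macrophage genes tested, 7 were lower and 2 higher in TOM+ cDC2. Of 7 ESAM-high cDC2 genes, Esam, Cd4 and Dtx1 were lower, and of 7 ESAM-low genes 3 were higher and 1 was lower. Of 16 cell cycle genes, 5 were higher, and of 8 genes of mature DC, Ccr7 and Cd83 were lower. Of 11 genes of group 3 innate lymphoid cells, 6 were lower in TOM+ cDC2, and 4 of them passed without the block. Of 10 monocyte genes, 3 were higher, among them Ccr2, the receptor for monocyte chemoattractants, at 32.8, 47.0 and 33.1 TPM against 21.9, 28.4 and 19.0 TPM (block padj = 1.0e-04, higher in all 3 pairs). Ccr2 and Csf1r are counted among the higher genes of both the monocyte and the ESAM-low list. Whether these lists play a part in the levels of S100a4, S100a6 and Crip1 was not tested.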

How the data were processed

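RNA of sorted cells was copied with SMART-seq v4 chemistry, which keeps no strand, and read from a single end. Per the labels, STAR and RSEM were run on mm10, in versions not given in the sources used here. The authors deposited STAR read counts per gene, unnormalised, of which the unstranded column was tested. The authors deposited RSEM expected counts, rounded here where tested, and TPM, used for levels and limma. Deposited FPKM were not used. Since strand was not kept, reads of genes that overlap another (Anxa1, Anxa2, Anxa5 and S100a4 have such annotated partners) cannot be told apart.

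Differences were tested in R 4.3.3 with edgeR 4.0.16 (quasi-likelihood, TMM, all 9 libraries, average count of at least 1, Benjamini-Hochberg over 14452 genes). DESeq2 1.42.0, limma 3.58.1 and other settings served as alternatives. The test was also run on simulated independent libraries, with changes between the young groups larger than those of the 10 genes. That run therefore does not bear on the small differences between the young groups or on the pairing. The 10 genes and all lists were chosen with earlier results of these data known. Of the other lists, genes that passed with a group mean of at least 10 TPM were named, at most 4 per comparison, plus the most abundant. For genes that passed, the 2 genes with the highest Pearson's r were named.

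Same-numbered young libraries deviated together from their group means (r = 0.743, 0.490 and 0.515 over 10112 genes), so the numbers, whose meaning the sources used here do not give, were taken to pair them. Adults shared 2 numbers with young mice (r from -0.013 to 0.15) and were not taken as paired, so that in age comparisons the block, which joins them too, is only an alternative. No library copied another (chi-square per gene of at least 8.74 between libraries of a group). Nothing says that replicates are separate litters, so p-values measure the spread between these libraries.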

Additional observations from a re-analysis of the deposited data

How the results depend on the processing

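S100a10, Anxa1, Anxa2, Vim and Crip1 passed as higher in young cells than in adults under every alternative run for both age comparisons. Without 1 library at a time, 5 to 6 of 10 genes passed in young TOM+ and 6 to 8 in young TOM- cells against adults, and 0 passed between both young groups. With the replicate block, 3 genes passed between the young groups, 7 in TOM+ cDC2 against adults and 9 in TOM- DC2 against adults, where S100a13 (padj = 0.012 and 0.015) and Anxa5 (padj = 0.0064 and 0.013) were added in both age comparisons. This block also joins the adult libraries numbered 91 and 92 to the young ones, which the correlations did not bear out, and 47.9% and 45.3% of all genes passed in it, against 40.6% and 36.3% without it. In it, 2 and 4 of the 7 ESCRT genes passed against adults. The block on young libraries alone passed 5 genes, and the block without both young libraries numbered 81, 91 or 92 passed 2, 5 and 5. These fits were chosen after seeing the data, and the share of all genes that passed in them is not given here. Library totals alone and both limma fits passed 7 and 8 genes with age. These settings also raised the median log2FC of all genes against adults, to 0.25 and 0.29 with library totals. It was 0.098 and 0.14 with limma on log2(TPM + 1), and 0.17 and 0.22 on log2(TPM + 0.1). The share of all genes that passed in these fits is not given here, so the added genes are not particular to the 10. Differences near 0 changed sign. Between the young groups, S100a13 fell to a log2FC of -0.016 with library totals, -0.011 with limma on log2(TPM + 1) and -0.011 with log2(TPM + 0.1), -0.010 without number 81, and -0.0078 and -0.0098 in the block without number 81 or 92. There, Anxa5 gave -0.0027, -0.012 and -0.012 in the same first 3 settings and -0.011 in the block without number 92, and S100a10 gave 0.027 in the block without number 91. Against adults, S100a4 of TOM+ cDC2 gave 0.061 with library totals, and S100a11 of TOM- DC2 gave -0.0032 with RLE factors, -0.0027 where only genes averaging 10 or more reads were kept, -0.0033 with DESeq2 and -0.0010 with RSEM counts. Without 1 library at a time, the log2FC between the young groups ranged from -0.14 to 0.099 for S100a10, -0.067 to 0.18 for S100a11, -0.096 to 0.12 for S100a13 and -0.0071 to 0.061 for Anxa5, and S100a11 against adults ranged from -0.033 to 0.21 (TOM+ cDC2) and from -0.079 to 0.15 (TOM- DC2). The cause of these changes was not tested. With 3 libraries per group, the intervals above limit what a failed test can show.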
